A study of Rattus norvegicus with 10 samples.

Results

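The 10 genes described here move calcium in and out of the intracellular store, and were followed in pancreatic islets of Wistar rats: the ryanodine receptor genes Ryr1, Ryr2 and Ryr3, the IP3 receptor genes Itpr1, Itpr2 and Itpr3, the pump genes Atp2a2 and Atp2a3, the store sensor gene Stim1 and the entry channel gene Orai1. They are 10 of the 14217 genes that the array's annotation gives as the sole symbol of a probeset, and every probeset carrying one of these symbols alone was taken, 19 in all. The set was chosen by its Ryr3 values, since Ryr3 was one of the genes with the lowest p in the same diet comparison (rank 7 among 5016 genes higher in the cafeteria group, each read from its brightest probeset). Its difference is therefore given as a description without a test. At ranks 6 and 8 in that order stood Amigo3 (log2 difference 0.71, SE 0.15) and Per2 (0.71, SE 0.16), with Ryr3 between them at 0.59 (SE 0.13).

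The cafeteria group was made up of 5 arrays from male Wistar rats, 7 weeks old, that ate a cafeteria diet with 66% of its calories as fat for 10 days. The standard group was made up of 5 arrays from rats of the same sex, strain and age on standard chow with 8% of its calories as fat. Each array held an independent islet sample, and the labels give no treatment other than diet. Islets were freed with collagenase, enriched by gradient and then hand-picked, so each sample mixes several cell types. For every sample 3 label fields (title, source name, description) give one diet, whereas 1 field, the diet characteristic, gives the other. The groups follow the 3 fields, and with the single field every sign given here would turn.

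Calcium is stored in the endoplasmic reticulum (ER) of the beta cell, where the SERCA pumps load it at the cost of ATP. It leaves through IP3 receptors, which open when receptors at the plasma membrane make phospholipase C produce IP3, and through ryanodine receptors, which open when cytosolic calcium rises. STIM1 senses an emptied store and opens the ORAI1 channel at the plasma membrane to refill it. In islets, store calcium shapes the calcium oscillations that drive insulin release, and a full store is needed to fold proinsulin.

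The upstream sequences of Ryr3 and Atp2a2, the genes with probesets whose groups did not overlap, are shown with that of the sister pump gene Atp2a3, so that the promoters can be compared. They are the 250 bases before the start of each gene in the RefSeq promoter table of build GRCr8, in which all 10 genes were found. The regions are chr3:120433466-120433715 on the minus strand for Ryr3, whose more upstream of 2 listed starts was used, chr12:39733269-39733518 on the plus strand for Atp2a2, and chr10:58080402-58080651 on the plus strand for Atp2a3. Capitals mark GGGCGG, the GC box, on either strand and, in Atp2a2, a match to CCAAT and CCAC with 9 bases between them.
Ryr3: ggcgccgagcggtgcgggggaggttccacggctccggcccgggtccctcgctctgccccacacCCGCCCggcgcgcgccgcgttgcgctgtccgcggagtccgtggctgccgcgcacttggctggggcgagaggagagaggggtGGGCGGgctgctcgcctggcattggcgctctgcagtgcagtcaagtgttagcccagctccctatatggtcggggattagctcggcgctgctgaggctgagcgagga
Atp2a2: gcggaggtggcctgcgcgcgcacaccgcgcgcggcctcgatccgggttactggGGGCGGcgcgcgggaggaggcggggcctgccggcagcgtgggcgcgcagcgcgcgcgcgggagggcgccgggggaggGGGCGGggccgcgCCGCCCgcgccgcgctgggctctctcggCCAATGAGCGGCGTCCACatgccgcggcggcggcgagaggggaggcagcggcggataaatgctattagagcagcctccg
Atp2a3: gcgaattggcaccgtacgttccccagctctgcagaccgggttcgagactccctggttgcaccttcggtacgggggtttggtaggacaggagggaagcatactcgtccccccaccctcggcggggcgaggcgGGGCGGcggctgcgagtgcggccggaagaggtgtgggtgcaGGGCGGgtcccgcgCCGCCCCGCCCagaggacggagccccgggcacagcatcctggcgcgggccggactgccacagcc

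All 3 stretches are rich in G and C, at 72.4% in Ryr3, 80% in Atp2a2 and 72.4% in Atp2a3. GGGCGG was present, on either strand, in 9 of the 10 members' windows, all but Itpr1, and in 30.5% of the 33469 windows of this length in the table. The ER stress response element, CCAAT and CCACG with 9 bases between them, is the sequence through which the unfolded protein response switches on ER chaperone genes. It was in none of the 10 windows and in 0.0657% of all windows. Without the last base, a form added after the Atp2a2 sequence had been read, it was in the Atp2a2 window 79 bases before the start, in no other member's window, and in 0.29% of all windows. CCAAT, which is part of both of these forms, was in 6 of the 10 and in 34% of all windows. CACGTG, an E-box, was in the Itpr3 window alone of the 10 and in 5.59% of all. TATAAA was in none of the 10 and in 12.9% of all. Such matches describe the letters of these windows and nothing more.

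Signals are MAS5 values, linear intensities that were already scaled so that the trimmed mean of each array lay between 500.1 and 500.2. Median signals ran from 150.8 to 173.2 over the 10 arrays. Differences are cafeteria minus standard on the scale log2(signal + 14.15), which understates the change of dim genes. Signals of different probesets bind their probes unequally and are not compared with each other. Only probesets brighter than the 40th percentile of mean log2 value, a signal of about 94.8, were tested, which left 18625 of 31042 once controls were set aside. Of the members' 19 probesets 16 passed, from 9 of the 10 genes, and the sole probeset of Ryr1 did not. Since no detection calls were used, it is not known which of the dim values lie above background. In such bulk samples fewer cells of a type and less RNA per cell cannot be told apart.

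No member passed the test over the whole array. With limma and Benjamini-Hochberg adjustment, 0 of the 16 tested member probesets and 0 of all 18625 (0% called) had an adjusted p under 0.05. At an unadjusted p under 0.05, 3 of the 16 were higher, against 5.51% of all probesets, and 0 were lower, against 4.91% (10.4% in either direction). The signals of the 5 cafeteria arrays all lay above those of the 5 standard arrays for 3 of the 16, against 0.988% of all, and all below them for 0, against 1.45% (2.44% in either direction). These 3 are the Ryr3 probeset, which chose the set, and 2 probesets of Atp2a2, so nothing is read from the count. In all, 12 of the 16 had a difference above 0 and 4 below, with a median of 0.13, beside 51.4% above 0 and a median of 0.0056 over all probesets tested. With median centring of the arrays 9 of the 16 were above 0.

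**Figure D1:**
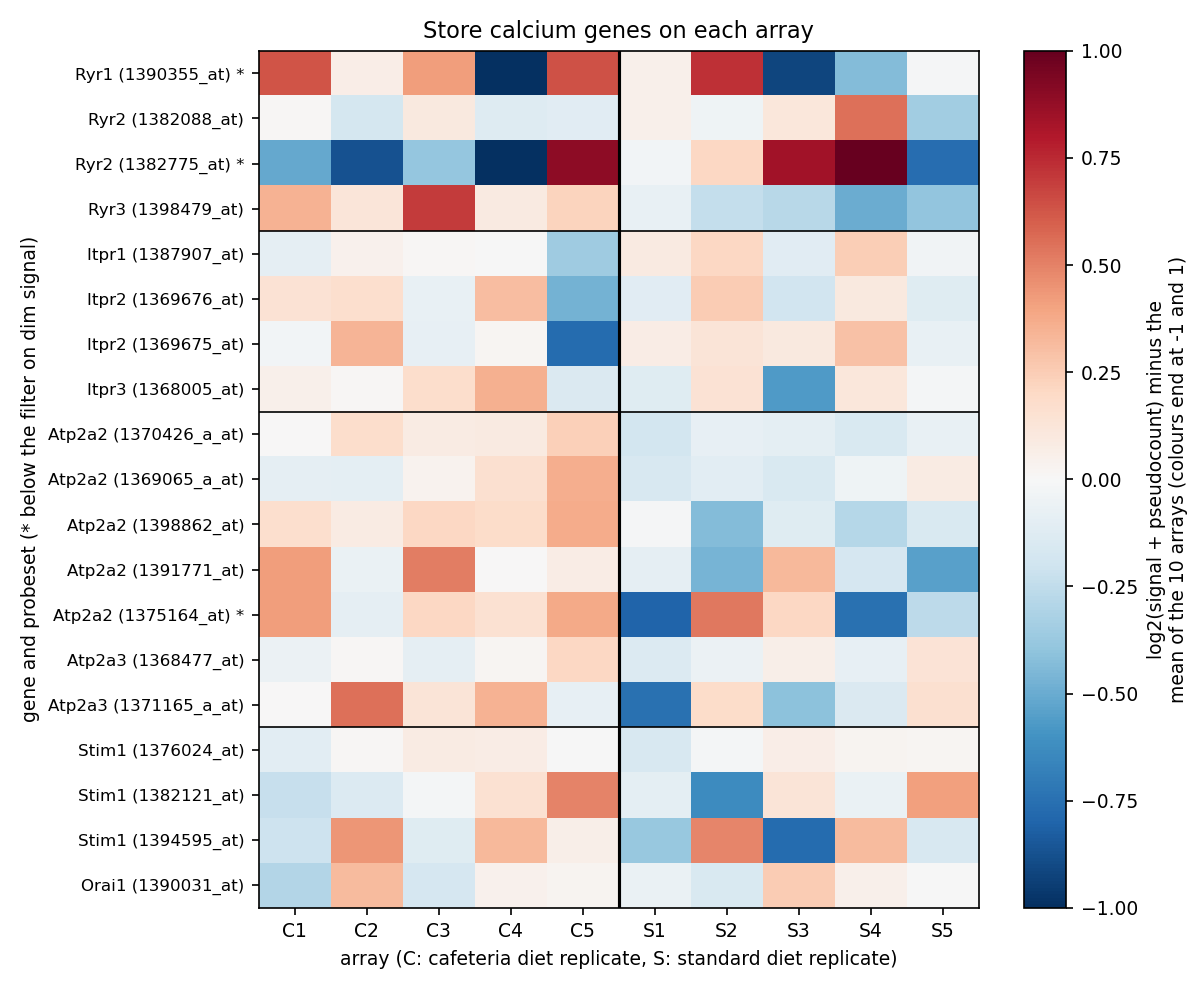
Heat map of the 19 member probesets (rows, by role) on the 5 cafeteria arrays (C1 to C5, left) and the 5 standard arrays (S1 to S5, right), coloured by log2(signal + pseudocount) minus the mean of the 10 arrays. Ryr3 and 2 rows of Atp2a2 are above their mean on the cafeteria side throughout, while the rows of Itpr2 are lowest on C5.

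Ryr3 encodes the ryanodine receptor type that is best known from brain and developing muscle. Its single probeset read 159.7, 134.5, 207.3, 131.2 and 145.3 in cafeteria replicates 1 to 5, against 115.25, 101.6, 98.5, 82.9 and 89.6 in standard replicates 1 to 5. Every cafeteria array was higher than every standard array, with cafeteria replicate 3 the highest and standard replicate 4 the lowest. The means were 155.6 ± 31.0 in the cafeteria group and 97.6 ± 12.3 in the standard group (SD, n = 5 each), a log2 difference of 0.59 (SE 0.13), or 1.51-fold on that scale. The probeset was dim, at percentile 45.2 of the mean log2 values, and its mean lay 0.33 above the filter. The difference was 0.49 without cafeteria replicate 3, and 0.60 (SE 0.19) with the GAPDH control ratio described further on as a covariate. With a pseudocount of 64 in place of 14.15 it was 0.44 and with a pseudocount of 1 it was 0.66.

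The groups of the other ryanodine receptor genes overlapped, unlike those of Ryr3. Ryr1, the release channel of skeletal muscle, read 14.3 to 85.1 in the cafeteria group and 19.7 to 91.8 in the standard group. It was below the filter and its groups overlapped fully. Its log2 difference of 0.23 had the sign of that of Ryr3 (SE 0.39 and limma adjusted p = 0.893 with no filter). Its signal is too dim and variable to show whether it shares the pattern. Ryr2, the heart type, which is also present in beta cells of rodents, had a tested probeset at 258.5 ± 21.4 in the cafeteria group and 288.6 ± 70.7 in the standard group (SD, n = 5 each). Its log2 difference was −0.12 (SE 0.14, 95% confidence interval −0.44 to 0.19; limma adjusted p = 0.769). The highest standard array was replicate 4, at 401.4, and without it the difference was −0.0026, whereas without standard replicate 5, the lowest, it was −0.23. The second Ryr2 probeset was below the filter, at 8.45 to 71.0 in the cafeteria group and 12.9 to 129.4 in the standard group. Its means were 25.8 ± 25.7 in the cafeteria group and 55.9 ± 45.6 in the standard group (SD, n = 5 each), and its log2 difference of −0.76 was the largest in size of the 19 probesets (SE 0.47 with no filter; limma adjusted p = 0.695).

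Among the genes whose array-to-array deviations from the group means, over the 10 arrays, were most like those of Ryr3 were Palldl1 (r = 0.94, rho = 0.93), Nckipsd (r = 0.92, rho = 0.90), Paxip1 (r = 0.88, rho = 0.85), Tdp2 (r = 0.88, rho = 0.59) and Cstf2 (r = 0.88, rho = 0.83). The most opposite were Tbl3 (r = −0.94), Qng1 (r = −0.94), Ephb4 (r = −0.92), Wdr48 (r = −0.92) and Ddi2 (r = −0.91). They are the extremes of 10300 genes compared, so no p is given. Without cafeteria replicate 3 and standard replicate 1, the arrays where Ryr3 deviated most, the r of Nckipsd was 0.91 and that of Palldl1 0.90, while that of Tdp2 was 0.52. None of these 10 genes is a store calcium gene of the set, and their own diet differences ran from −0.13 to 0.28.

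The pump gene Atp2a2 was higher in the cafeteria group at each of its 5 probesets, though no probeset passed over the whole array. Beside this, 51.4% of all probesets tested were above 0. The 5 read the same gene in the same samples, and 1375164_at was below the filter. Atp2a2 encodes SERCA2, whose widely expressed splice form loads the ER of most cells. Probeset 1370426_a_at read 11569, 13005, 12213, 12262 and 13595 in cafeteria replicates 1 to 5, against 10109, 10883, 10740.3, 10361 and 10914 in standard replicates 1 to 5. The groups did not overlap. The means were 12529 ± 784 in the cafeteria group and 10601 ± 352 in the standard group (SD, n = 5 each), a log2 difference of 0.24 (SE 0.071; limma adjusted p = 0.398).

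Probeset 1398862_at read 1948, 1833, 2002, 1976 and 2243 in cafeteria replicates 1 to 5, against 1723, 1278, 1593, 1420.05 and 1558 in standard replicates 1 to 5. Here too every cafeteria array was above every standard array. The log2 difference was 0.40 (SE 0.095; limma adjusted p = 0.398), or 1.32-fold.

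The other probesets of Atp2a2 overlapped between the groups. Probeset 1369065_a_at averaged 6521 ± 910 in the cafeteria group and 5846 ± 408 in the standard group (SD, n = 5 each), a log2 difference of 0.15 (SE 0.10; limma adjusted p = 0.606). Cafeteria replicate 5 was the highest, at 7919.6, and without it the difference was 0.077. The dimmer probeset 1391771_at averaged 144.7 ± 28.9 in the cafeteria group and 109.4 ± 30.9 in the standard group (SD, n = 5 each), with a log2 difference of 0.38 (SE 0.17; limma adjusted p = 0.480). Probeset 1375164_at was below the filter, at 48.3 to 74.7 in the cafeteria group and 24.1 to 82.0 in the standard group.

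**Figure D2:**
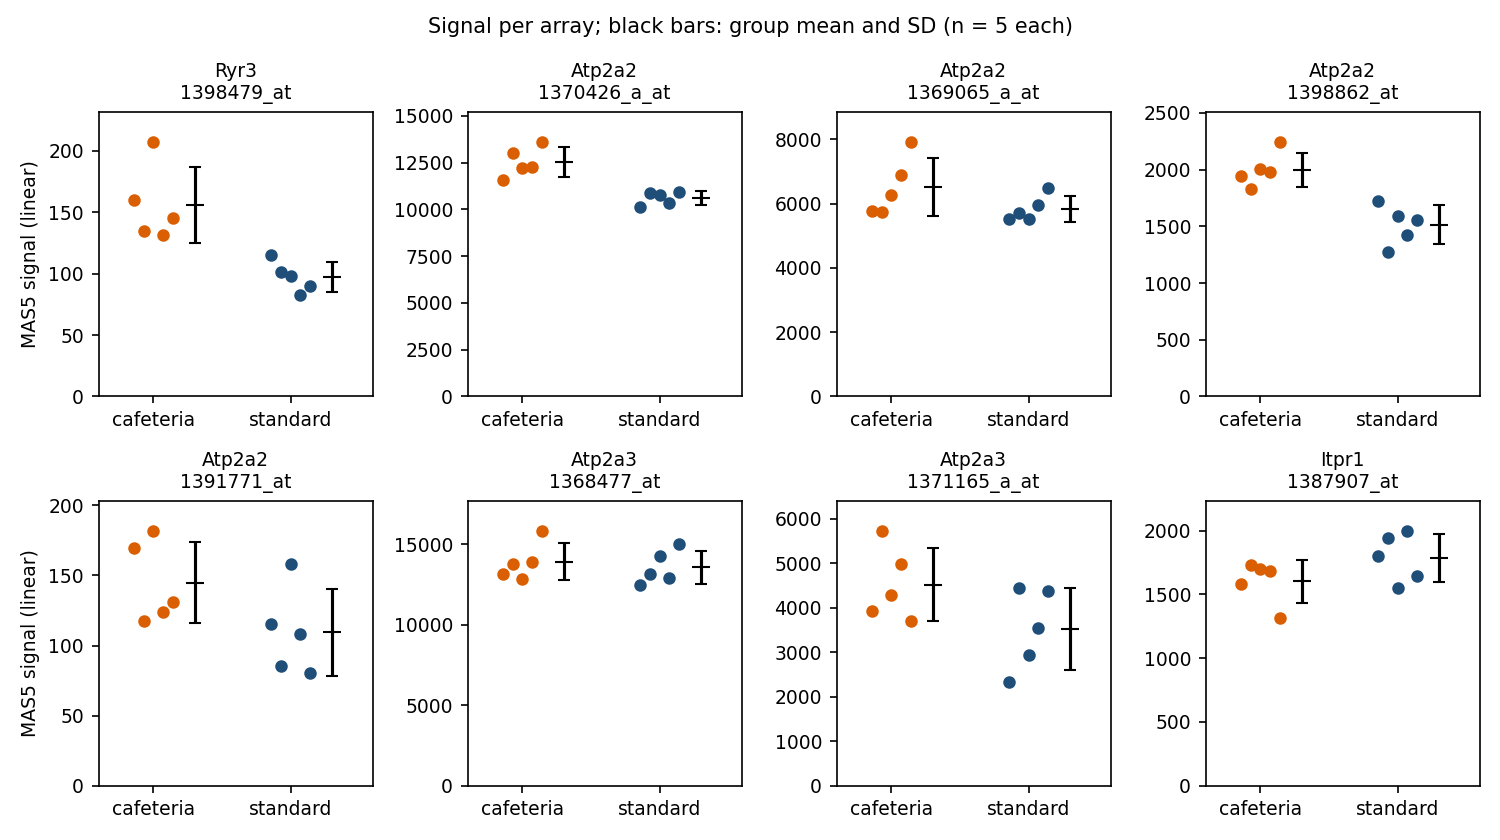
MAS5 signal (linear axis from 0) of 8 member probesets on each array, with the 5 cafeteria arrays in orange at the left and the 5 standard arrays in blue at the right of each panel; black marks are the group mean with its SD. The groups are apart for Ryr3 and for Atp2a2 probesets 1370426_a_at and 1398862_at, and overlap in the other 5 panels.

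Atp2a3 encodes SERCA3, a pump of narrower distribution that is found in pancreatic beta cells of rodents. Its 2 probesets gave different pictures. Probeset 1368477_at read 13156, 13794, 12849.85, 13863 and 15799 in cafeteria replicates 1 to 5, against 12453, 13129.7, 14233.5, 12917 and 15028 in standard replicates 1 to 5. These groups overlapped almost entirely, with a log2 difference of 0.035 (SE 0.085, 95% confidence interval −0.15 to 0.22; limma adjusted p = 0.898). Probeset 1371165_a_at read 3923, 5718, 4278, 4978 and 3696 in cafeteria replicates 1 to 5, against 2324, 4445, 2945, 3533 and 4372 in standard replicates 1 to 5. Its log2 difference was 0.38 (SE 0.19; limma adjusted p = 0.497), and all 5 cafeteria arrays were above the mean of the standard group, 3524, while only 2 were above its highest array. Without standard replicate 1 the difference was 0.24, and with the GAPDH control ratio in the model it turned to −0.11.

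The IP3 receptor probesets lay on both sides of 0, and all 4 lay below 0 when the GAPDH control ratio described further on entered the model (−0.35 for Itpr1, −0.32 and −0.47 for Itpr2, −0.13 for Itpr3). Itpr1, the type also known from cerebellar neurons, read 1582, 1734, 1701, 1681 and 1314 in cafeteria replicates 1 to 5, against 1798, 1943, 1553, 1995.5 and 1643 in standard replicates 1 to 5. The cafeteria arrays were all below the standard mean of 1786, and the groups overlapped, with a log2 difference of −0.16 (SE 0.10; limma adjusted p = 0.594). Without cafeteria replicate 5 it was −0.087. Itpr3 averaged 493.3 ± 66.9 in the cafeteria group and 437.3 ± 81.4 in the standard group (SD, n = 5 each), a log2 difference of 0.18 (SE 0.14; limma adjusted p = 0.660). Without standard replicate 3 it was 0.061, and without cafeteria replicate 4 it was 0.11.

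Itpr2 was read by a pair of probesets whose differences had opposite signs, 0.029 (SE 0.15) for 1369676_at and −0.21 (SE 0.17) for 1369675_at. Both were lowest in cafeteria replicate 5, at 266.0 and 115.4. Without that array the differences were 0.15 and −0.040. The other cafeteria arrays ran from 355.8 to 466.9 and from 194.2 to 265.5.

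The sensor and entry channel genes were measured with unequal precision. The brightest Stim1 probeset, 1376024_at, had one of the narrowest spreads of the set, at 1194 ± 63.8 in the cafeteria group and 1174 ± 69.6 in the standard group (SD, n = 5 each). Its log2 difference was 0.024 (SE 0.074), with a 95% confidence interval from −0.14 to 0.19. The other Stim1 probesets differed by 0.11 (SE 0.19, 95% confidence interval −0.31 to 0.52) for 1382121_at and 0.20 (SE 0.23, 95% confidence interval −0.30 to 0.70) for 1394595_at. With 1 array left out, 1394595_at ran from 0.034 (without standard replicate 3) to 0.35 (without standard replicate 2). With the GAPDH control ratio in the model 1382121_at was at 0.50 and 1394595_at at −0.30. Orai1 averaged 349.6 ± 60.1 in the cafeteria group and 355.8 ± 40.9 in the standard group (SD, n = 5 each), a log2 difference of −0.033 (SE 0.12, 95% confidence interval −0.30 to 0.24). For these 4 probesets the limma adjusted p lay between 0.766 and 0.934.

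**Figure D3:**
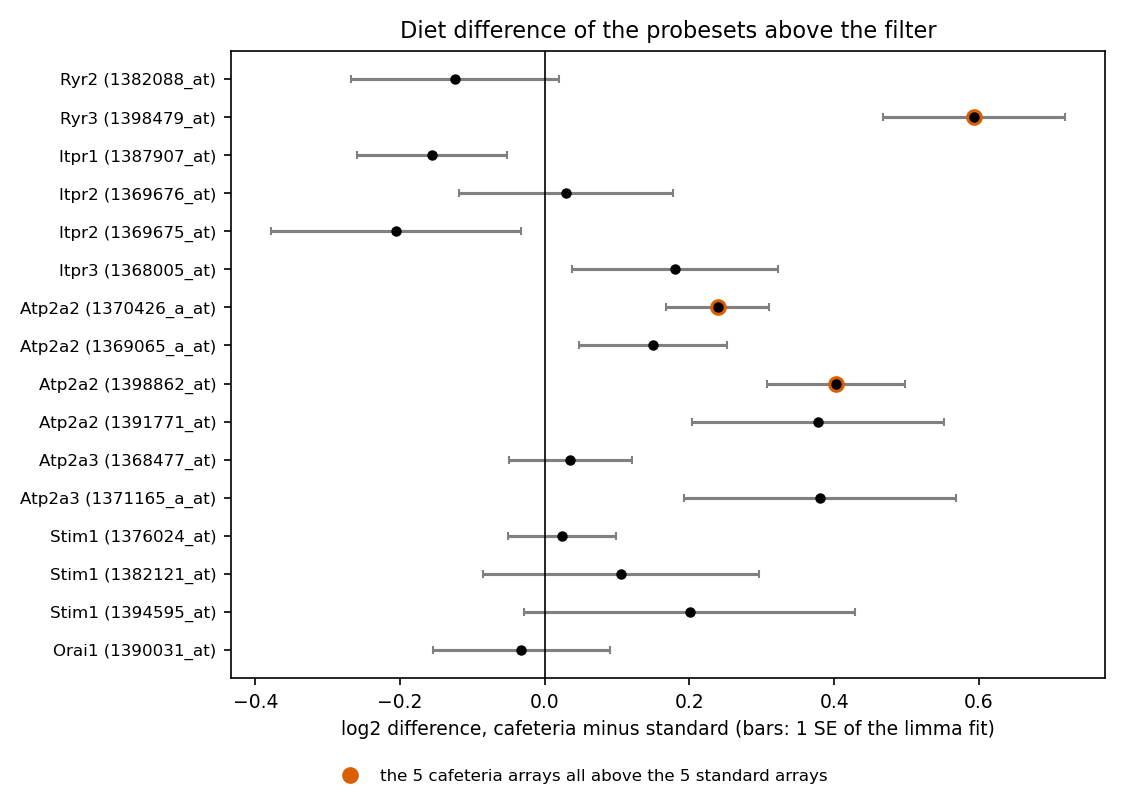
Log2 difference, cafeteria minus standard, of the 16 tested member probesets, with bars of 1 SE; points ringed in orange are the 3 probesets whose cafeteria arrays all lay above the standard arrays. Ryr3 at 0.59 and Atp2a2 1398862_at at 0.40 lie farthest to the right, and the differences of Itpr2 1369675_at and Itpr1 lie farthest to the left.

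Probesets of the same gene often did not follow each other from array to array. Over the 10 arrays, as deviations from the group means, the pair of Itpr2 had r = 0.80 (permutation p = 0.00764, adjusted p = 0.0840) and rho = 0.81 (permutation p = 0.00738, adjusted p = 0.0812). Without the 2 arrays farthest from its median r was 0.56. The other 10 of the 11 same-gene pairs had r from −0.47 to 0.57. Of the 11 pairs, 0 passed after adjustment and 3 were below 0, and the separated Atp2a2 probesets 1370426_a_at and 1398862_at had r = 0.021 (permutation p = 0.954) and rho = −0.055 (permutation p = 0.892).

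An RNA quality measure differed between the groups, and several values moved when it entered the model. The ratio of the 3 prime to the 5 prime control probeset of GAPDH, which goes up with degraded RNA, was 1.01 ± 0.063 in the cafeteria group and 1.16 ± 0.10 in the standard group (SD, n = 5 each; exact two-sided permutation p = 0.0238, adjusted over 2 ratios 0.0476). With each of the 10 arrays left out in turn, the adjusted p passed in 2 cases (without cafeteria replicate 5 or standard replicate 2) and missed in 8 (exact permutation). The beta-actin ratio was 2.65 ± 0.31 in the cafeteria group and 2.81 ± 0.26 in the standard group (SD, n = 5 each; exact permutation p = 0.405). When this GAPDH ratio entered the model, Ryr3 was at 0.60, Atp2a2 1370426_a_at at 0.24 and Atp2a2 1369065_a_at at 0.21. Atp2a2 1398862_at was then at 0.63 and 1391771_at at 0.62. Stim1 1376024_at turned to −0.018 (SE 0.11) and Orai1 to 0.056 (SE 0.18), both within an SE of 0. Of the turns given above, those of Itpr3 (SE 0.17) and Atp2a3 1371165_a_at (SE 0.18) also lay within an SE of 0. Those of Itpr2 1369676_at (SE 0.16) and Stim1 1394595_at (SE 0.26) lay beyond it. In that fit 8 of the 16 member probesets were higher, and no adjusted p passed.

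**Figure D4:**
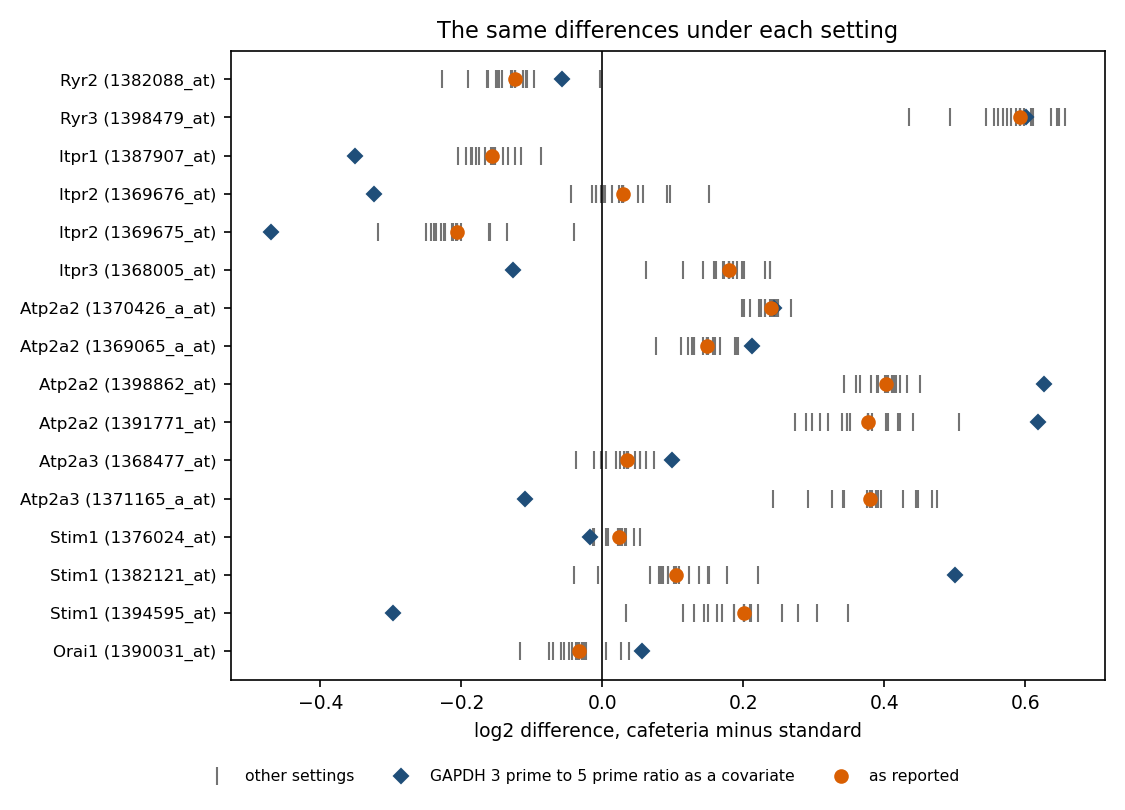
Log2 difference, cafeteria minus standard, of each tested member probeset as reported (orange circle), with the GAPDH ratio as a covariate (blue diamond) and under the other settings (grey ticks). Ryr3 lies between 0.44 and 0.66 in the 21 settings that kept it and the 4 Atp2a2 probesets stay right of 0, while Atp2a3 1371165_a_at, Itpr3 and Stim1 1394595_at cross 0 with the covariate.

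The tissue label was borne out by the islet markers: Ins1 read 16265 to 29186 in the cafeteria group and 15847 to 21258 in the standard group. The beta cell index, the mean log2 value of 7 markers measured out of 10 listed, was 13.41 to 13.79 in the cafeteria group and 13.44 to 13.57 in the standard group. Immune cells, which also use Atp2a3 and Stim1, were traced by 6 markers above the filter out of 9 listed. That index was 8.31 to 10.25 in the cafeteria group and 8.30 to 10.21 in the standard group, a difference of −0.73 (exact permutation p = 0.214, adjusted p = 0.571). It was highest in cafeteria replicate 3, which was also highest for Ryr3, and next in standard replicate 5 (10.21), which read 89.6 for Ryr3. The part of this index in the results was not tested. The acinar index (12 markers above the filter out of 14) was 8.52 to 10.64 in the cafeteria group and 9.33 to 10.47 in the standard group. Its difference of −0.12 is a mean over markers that went both ways, from −1.17 for Amy2a3 to 1.32 for Prss2. With this index as a covariate no member passed. Skeletal muscle, the main home of Ryr1, was traced by only 2 markers above the filter of 6 listed, Acta1 and Myh1, with Ckm at 17.5 to 96.7 in the cafeteria group and 10.9 to 109.7 in the standard group. Acta1 differed by 0.28. Myh1, at 7636 to 8859 in the cafeteria group and 7627 to 8929 in the standard group, differed by −0.0077. Myh4 and Tnnt3 were also below the filter, so it is not known whether this index traces skeletal muscle. Of the 8 indices, 0 passed adjustment and 0 had an exact permutation p under 0.05 unadjusted (lowest 0.0556, skeletal muscle, 10.69 to 10.87 in the cafeteria group and 10.52 to 10.78 in the standard group). Differences in the duct, endothelial, stromal and other islet endocrine indices were 0.13 (0.023 without standard replicate 4, 0.25 without cafeteria replicate 4), −0.0064, −0.054 and 0.19, and no glial marker was above the filter.

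The wider calcium pathway was followed with 8 lists of other genes, 93 in all, of which 84 were on the array and 65 were tested from their brightest probeset. With limma, 0 of the 65 had an adjusted p under 0.05 (0% called over all genes). Of the 65, 35 were higher and 30 lower, with a median of 0.025. At an unadjusted p under 0.05, 7 were higher, against 5.03% of all 10301 genes, and 4 lower, against 5.25%. The groups did not overlap for 4 higher genes, against 1.06% of all, and for 2 lower, against 1.72%.

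Among genes of IP3 formation and removal and partners of the IP3 receptors, 8 of 15 were higher and the median was 0.0025. Chrm3, the muscarinic receptor through which acetylcholine raises IP3 in beta cells, read 498.3, 437.5, 673.3, 442.9 and 601.2 in cafeteria replicates 1 to 5, against 285.7, 480.0, 382.8, 439.0 and 391.1 in standard replicates 1 to 5. Its groups overlapped through standard replicates 2 and 4, with a log2 difference of 0.41 (SE 0.16; limma adjusted p = 0.436). Inpp5a, a phosphatase that ends the IP3 signal, differed by −0.19 (SE 0.081). The partners of the ryanodine receptors were mostly dim, since 6 of 14 on the array were tested, 2 higher and 4 lower, with a median of −0.026.

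Of the other pumps and leak proteins, 1 was higher and 3 lower. Atp2c1, the calcium pump of the Golgi, read 804.9 to 929.3 in the cafeteria group and 953.9 to 1262 in the standard group, without overlap, and its log2 difference of −0.25 (SE 0.091; limma adjusted p = 0.422) ran against that of Atp2a2. The other store-operated entry genes, among them Stim2 (−0.021, SE 0.078) and Orai2 (−0.29, SE 0.17), were 3 higher and 5 lower with a median of −0.022.

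Of the plasma membrane export genes, 4 of 6 were higher, with a median of 0.063. Atp2b4, a calcium pump of the plasma membrane, read 165.5, 192.8, 218.9, 162.5 and 94.7 in cafeteria replicates 1 to 5, against 87.9, 131.2, 85.4, 113.1 and 90.6 in standard replicates 1 to 5. In 4 of the 5 cafeteria arrays it lay above every standard array, and its log2 difference was 0.62 (SE 0.19; limma adjusted p = 0.407). Cafeteria replicate 5, its lowest cafeteria array, had the highest GAPDH control ratio of that group (1.11). Standard replicate 2, its highest standard array, had the lowest ratio of that group (1.00). The part of that ratio was not tested for the genes of these lists. The sodium/calcium exchanger gene Slc8a3 differed by 0.35 (SE 0.15; limma adjusted p = 0.456).

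Among mitochondrial calcium genes 4 of 10 were higher, with a median of −0.036. Letm1, an inner membrane ion exchanger, differed by 0.21 (SE 0.083) and Micu2, a gatekeeper of the uniporter, by −0.23 (SE 0.092). The 2 tested endolysosomal channel genes went apart, with the two-pore channel gene Tpcn1 at 0.42 (SE 0.16) and Mcoln1 at −0.14 (SE 0.12).

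The list of calcium-binding proteins of the ER lumen had 12 of 14 members higher and a median of 0.13, beside 48.7% higher among all genes tested. It is not limited to the ER, since Nucb1, Nucb2 and Sdf4, all among the higher ones, belong to the wider secretory pathway. Of the higher ones, Canx, Pdia3 and Rcn1 differed by only 0.025 each. Median centring, which lowered every difference by the same amount, took Ryr3 from 0.593 to 0.556. The lists were not recounted under it or under any other setting. Nucb1, a calcium-binding protein of the secretory pathway, read 5225 to 6670 in the cafeteria group and 4437 to 5204 in the standard group, with a log2 difference of 0.29 (SE 0.096; limma adjusted p = 0.412). The chaperone Hsp90b1 differed by 0.28 (SE 0.10; limma adjusted p = 0.422), with cafeteria replicate 5 at 28088 and the other cafeteria arrays at 20388 to 20965. The buffers Calr (0.22, SE 0.11) and Hspa5 (0.17, SE 0.081) lay above 0 without an unadjusted p under 0.05, and of these the groups of Hspa5 did not overlap. Rcn2, reticulocalbin 2, was the exception among those with an unadjusted p under 0.05, at −0.18 (SE 0.077) with groups that did not overlap.

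**Figure D5:**
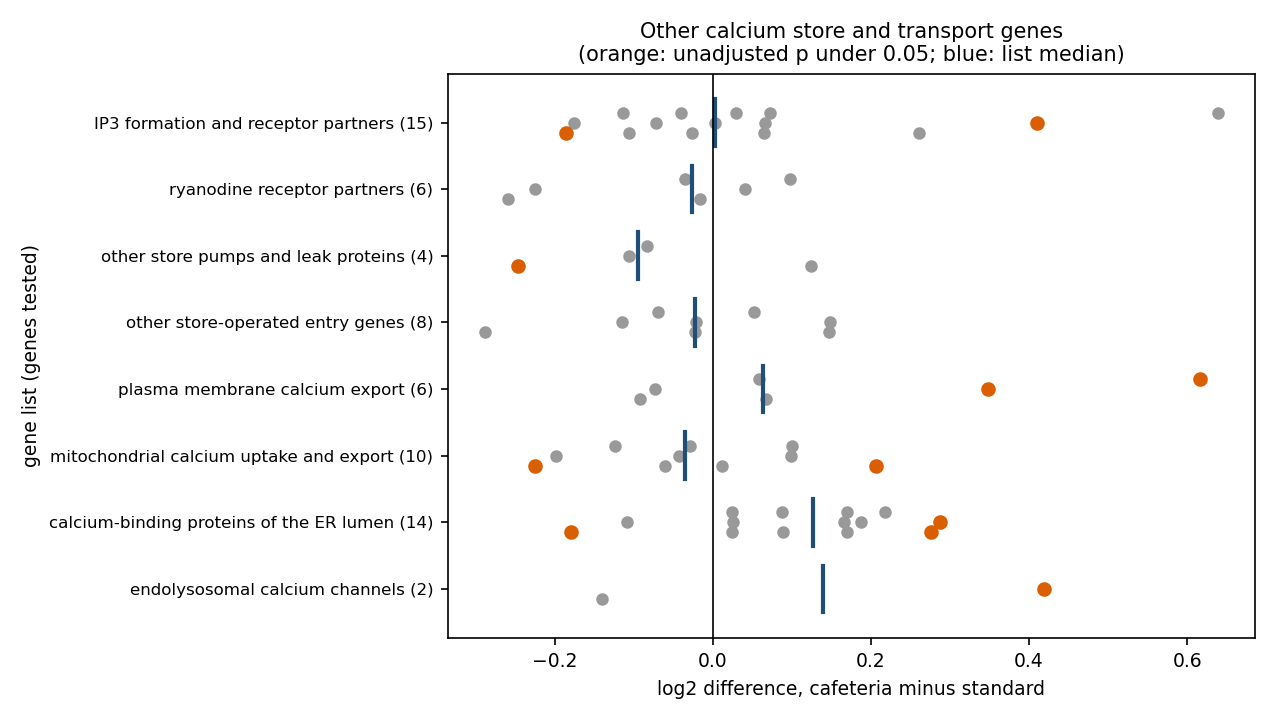
Log2 difference, cafeteria minus standard, of the 65 tested genes of the 8 calcium lists (1 dot a gene, orange where the unadjusted p was under 0.05), with the list median as a blue bar. The list labelled ER lumen, which also holds proteins of the wider secretory pathway, has 12 of 14 dots right of 0. Itpkb, at 0.64 without an unadjusted p under 0.05, and Atp2b4 at 0.62 lie farthest right.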

How the data were processed

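Affymetrix Rat Genome 230 2.0 arrays of 10 islet samples were used. The deposited table holds linear intensity values for 31099 probesets, 57 of them controls. Per the submitters' processing notes the authors used MAS5 (version not stated). No further normalization was applied. The replicates are independent samples per the labels' protocols. No scan or slide batch was used, since the sources used here give none.

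Values were log2(signal + 14.15), the pseudocount being the 10th percentile of all values. Non-control probesets with a mean above the 40th percentile (18625) entered limma 3.58.1 under R 4.3.3 (functions lmFit, eBayes), with 8 residual degrees of freedom, 3.11 from the prior and Benjamini-Hochberg adjustment. The fit was tested on simulated data with known changes. For marker indices and control ratios all 252 divisions of the arrays were enumerated (exact permutation, two-sided), the smallest possible p being 0.00794. Same-gene pairs used 100000 permutations. Depth does not apply to arrays: their number limits the precision.

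Symbols came from the platform annotation: 20826 probesets had 1 symbol, 436 several and 9780 none. The table names no genome build. Promoter sequences are RefSeq's, of GRCr8. No protein sequences were used. Named genes are all members, up to 4 genes a list by lowest p where the unadjusted p was under 0.05, and the 5 genes most like and most unlike Ryr3. The choice of Stim2, Orai2, Itpkb, Mcoln1, Calr, Hspa5, Canx, Pdia3 and Rcn1 was made with their values in view. The members and lists were chosen with earlier results of these data known.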

Additional observations from a re-analysis of the deposited data

Results flagged for a closer look

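Dixon's gap test at 95% was applied to 58 sets of 5 arrays: member probesets, marker indices and control ratios, group by group. It singled out 2 sets, where chance alone gives about 2.9 (1 in 20), and neither was a member probeset. The immune index of cafeteria replicate 3 was 10.25, with the other cafeteria arrays at 8.31 to 8.64. The endothelial index of standard replicate 5 was 10.56, with the other standard arrays at 10.14 to 10.26. Ryr3 was highest in that same cafeteria replicate 3, and its difference without that array was 0.49. Standard replicates 5, 1 and 3 had immune indices of 10.21, 10.05 and 9.87, and there Ryr3 read 89.6, 115.25 and 98.5. A link between the immune index and Ryr3 was not tested.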

How the results depend on the processing

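In 22 other settings, 10 of which left out 1 array, 0 member values passed the adjusted threshold (lowest adjusted p 0.204). Ryr3, the 4 tested Atp2a2 probesets, Itpr1, Ryr2 and Itpr2 1369675_at kept their direction in every setting that tested them. The groups of Ryr3 and of Atp2a2 1370426_a_at and 1398862_at did not overlap. Leaving out 1 array or changing the pseudocount could therefore not turn them, and nothing is read from their kept direction in those settings. Of 344 member values 21 turned, and the cause was not tested. The 344 include settings that cannot change a difference of any probeset. These are the changes of the filter, the trend and robust options of limma, and the replicate block. Leaving out probesets named _s_at, _x_at or _a_at cannot change one either. Nothing is read from a kept direction in these settings. With quantile normalization Atp2a3 1368477_at was at −0.037. With median centring it was at −0.0020, Itpr2 1369676_at at −0.0083 and Stim1 1376024_at at −0.013. With the GAPDH ratio in the model the values were −0.32 for Itpr2 1369676_at, −0.13 for Itpr3, −0.11 for Atp2a3 1371165_a_at, −0.018 for Stim1 1376024_at, −0.30 for Stim1 1394595_at and 0.056 for Orai1. Leaving out 1 array turned Itpr2 1369676_at (lowest −0.044, highest 0.15), Orai1 (−0.12 to 0.037), Atp2a3 1368477_at (−0.012 to 0.073), Stim1 1376024_at (−0.012 to 0.054) and Stim1 1382121_at (−0.040 to 0.22).

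The count of probesets past the threshold, 0, was 1 without standard replicate 2 (Emp1, 0.73) and 0 without any other single array. It was 1 with the acinar index in the model (Amy2a3, −1.04, which belongs to that index). Of the tested member probesets, 12 of 16 were higher, 10 to 13 without 1 array, 8 with the GAPDH ratio, 9 with median centring and 7 of the 8 left by the filter at the 70th percentile, which Ryr3 did not pass. Median centring moved the share of all probesets above 0 to 42.9%. The GAPDH ratio difference of −0.21 ran from −0.26 to −0.17 without 1 array, and its p adjusted over 2 ratios (exact permutation, 0.0476 with all arrays) ran from 0.0317 to 0.127. It missed the threshold in 8 of 10 cases, all but those without cafeteria replicate 5 or standard replicate 2. In the settings run for them, 0 marker indices passed. The beta cell index turned to −0.028 with quantile normalization. Leaving out 1 array turned the beta cell (−0.0086 to 0.086), acinar (−0.38 to 0.15), endothelial (−0.086 to 0.067) and stromal (−0.096 to 0.021) indices, and the duct index ran from 0.023 to 0.25.

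The replicate numbers were not taken to pair the samples, since the labels give no pairing. Same-numbered arrays deviated together with r over 0.1 in 3 of 5 pairs (0.30, 0.25 and 0.14 for replicates 2, 3 and 5). In these 3 the best match was the array of the same number. A shared structure by replicate number was not tested. With the replicate block the count past the threshold was 0 and no adjusted call changed. An unadjusted p under 0.05 was found for 5 of 16, in place of 3 (Atp2a2 1391771_at and Atp2a3 1371165_a_at in addition). Each number has 1 array of each diet, so the block cannot change a difference. The count of 12 member probesets higher was therefore fixed. With 5 arrays a group the precision is limited, and Ryr3 has 1 dim probeset.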
